A study of Homo sapiens with 9 samples.

Results

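Transforming growth factor-β (TGF-β) signalling was followed through 10 genes: the ligand genes TGFB1, TGFB2 and INHBA, the receptor genes TGFBR1, TGFBR2 and TGFBR3, the latency gene LTBP1, the signal carriers SMAD3 and SMAD7, and the TGF-β-induced matrix gene TGFBI. A gene was included through the probe set that the array annotation assigns to its symbol and to no other, and each of the 10 had exactly 1 such probe set, out of 18417 genes with one. Of the 10 genes, 9 reached a log2 signal of 5 in at least 1 array and were tested, as were 11232 of the 18417 genes. The gene left out of the tests was INHBA, whose highest log2 signal was 4.18.

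The study asked how the isoforms of tissue factor pathway inhibitor (TFPI), an inhibitor of blood coagulation, alter gene expression in a breast cancer line. Total RNA was hybridized to 9 Affymetrix Human Gene 1.0 ST arrays. All were labelled as SK-BR-3, a luminal-like line of mammary adenocarcinoma, grown in one medium with serum. By the labels, 3 arrays carry RNA of cells with stable overexpression of TFPIα, 3 of cells with stable overexpression of TFPIβ and 3 of cells with the empty pTOPO vector. The cells were pools rather than clones, all had passed drug selection (puromycin by the labels, neomycin by the methods), and the arrays of a group are separate RNA isolations of 1 cell pool, so each p-value measures the spread between isolations and not between independent transfections. All values are log2 signals after robust multichip analysis (RMA), in which a step of 1 is a 2-fold difference. Tests compare levels between arrays and never between genes, and levels of different markers are set side by side only as description.

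The ligands TGF-β1 and TGF-β2 are secreted in a latent complex, which LTBP1 tethers to the extracellular matrix. Once released, they bind the kinase receptor TGFBR2, which recruits and activates TGFBR1, and the co-receptor TGFBR3 (betaglycan) presents ligand, TGF-β2 above all, to this pair. Activated TGFBR1 phosphorylates SMAD2 and SMAD3, which enter the nucleus with SMAD4 and act on target genes, while SMAD7 is an inhibitory SMAD that targets the receptor, and in epithelial cells the pathway is known both for arrest of growth and for induction of matrix genes.

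The overexpression named in the labels could not be checked on these values, so the groups are called by their labels throughout. By the study's account the cloned TFPI cDNA held the coding region alone, and probes that read the untranslated ends of the mRNA did not detect it. The study does report higher TFPI in both overexpressing lines by quantitative PCR, by ELISA and by PLIER, a summary of the array signals that leaves out weak probes. The TFPI probe set, as summarized by RMA, is therefore no check of the transgene. It had log2 signals of 5.66, 5.81 and 5.51 in the TFPIα arrays, 5.55, 5.79 and 5.81 in the TFPIβ arrays and 5.81, 6.48 and 6.45 in the empty vector arrays (log2 fold changes -0.59 and -0.53, limma adjusted p = 0.335 and 1). Over the 9 arrays ERBB2, which is amplified in SK-BR-3, ranged from 5.63 to 6.24, the luminal keratins KRT8, KRT18 and KRT19 from 5.68 to 6.20, 9.49 to 10.76 and 4.64 to 5.25, the basal keratins KRT5 and KRT14 from 12.40 to 12.83 and 11.99 to 12.74, and GAPDH from 12.73 to 13.05. KRT19 was under the level of 5 in 6 of the 9 arrays. Of the other luminal and HER2 amplicon markers, STARD3 ranged from 6.45 to 6.58, GRB7 from 5.04 to 5.30 and GATA3 from 4.86 to 5.82. FOXA1 ranged from 4.64 to 5.13, CDH1 from 3.88 to 6.18 and ERBB3 from 3.34 to 3.76. The array medians were 4.78 to 4.88. Low ERBB2 signals beside high KRT5 and KRT14 signals are unusual for a luminal-like line with ERBB2 amplified. The luminal keratin KRT18, at 9.49 to 10.76, was high as well. Signals of different probe sets are not on a common scale, however, and the cell line of the labels was not tested. Over all 17482 probe sets tested with limma, a call required an adjusted p under 0.05 and at least 2-fold. The calls were 1 for TFPIα against empty vector, 0 for TFPIβ against empty vector and 0 for TFPIβ against TFPIα. With the replicate number as a block they were 0, 0 and 1. The study reports far more differentially expressed transcripts for each isoform and checked selected genes by quantitative PCR. Its counts were not reproduced from the deposited values, and the cause was not tested. The arrays carry replicate numbers 1 to 3 in each group. Over all tested probe sets, deviations from group means were weakly to moderately correlated between arrays with the same number, at 0.137 to 0.594. Arrays with different numbers had -0.512 to 0.266, so the ranges overlapped. The comparisons with empty vector have their 3 control arrays in common, so their values stand side by side and are not independent.

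TGFB2 and TGFBR3, a ligand gene and the gene of the co-receptor that presents it, had the widest ranges of the 10 genes and moved in opposite directions from array to array. Their promoters are shown for that reason, each as the 250 bases before and 50 bases after the transcription start in RefSeq on GRCh38.p14, read 5′ to 3′ on the strand of the gene. Capitals mark every match, on either strand, to 4 motifs: the SMAD-binding element CAGAC, the E-box CACGTG, the TATA box TATAAA and the GC box GGGCGG.
TGFB2, chr1:218345086-218345385, plus strand: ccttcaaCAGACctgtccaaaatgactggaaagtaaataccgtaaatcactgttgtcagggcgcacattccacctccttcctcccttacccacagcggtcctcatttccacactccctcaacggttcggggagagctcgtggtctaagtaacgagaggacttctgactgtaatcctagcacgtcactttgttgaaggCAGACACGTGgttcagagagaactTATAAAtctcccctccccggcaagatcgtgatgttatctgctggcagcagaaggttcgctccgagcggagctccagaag
TGFBR3, chr1:91886102-91886401, minus strand: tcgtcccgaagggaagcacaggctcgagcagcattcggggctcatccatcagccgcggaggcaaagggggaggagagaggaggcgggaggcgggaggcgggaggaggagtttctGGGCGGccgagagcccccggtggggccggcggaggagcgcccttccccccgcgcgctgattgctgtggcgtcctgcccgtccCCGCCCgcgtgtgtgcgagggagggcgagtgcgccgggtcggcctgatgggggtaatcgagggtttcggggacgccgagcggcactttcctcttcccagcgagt

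The TGFB2 window held CAGAC at 243 and 53 bases before the start, CACGTG at 49 bases before it, which overlaps the second CAGAC, and TATAAA at 29 bases before it. In the TGFBR3 window only GGGCGG was matched, once in each orientation, at 136 and 54 bases before the start. Such matches are common: of 35116 RefSeq windows of this length, 45.3% held CAGAC, 7.26% CACGTG, 11.5% TATAAA and 45.0% GGGCGG. A match describes the letters of a window and is neither a site nor a cause.

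No member was called in any of the 3 comparisons. With limma, 0 of 9 tested members passed in TFPIα against empty vector, where 0.00572% of all probe sets passed, and 0 of 9 passed for TFPIβ against the same controls and for TFPIβ against TFPIα, where 0% passed in each. At an unadjusted p under 0.05 the count of members was again 0 in each comparison, beside 14.2%, 4.72% and 8.63% of all probe sets. The one-way model that the methods name also called 0 members in each. Of the 9 tested members 1, 0 and 1 did not overlap between groups, beside 23.3%, 7.16% and 13.3% of all probe sets: TGFB1 was higher in every TFPIα array than in every empty vector array, and TGFBI was higher in every TFPIβ array than in every TFPIα array. The median log2 fold change of the 9 members was 0.02, -0.03 and -0.11 in the 3 comparisons, and the median of all probe sets was 0.00 in each. For 9 of all 10 genes the widest range within a group was larger than the largest difference between group means, the exception being INHBA.

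**Figure D1:**
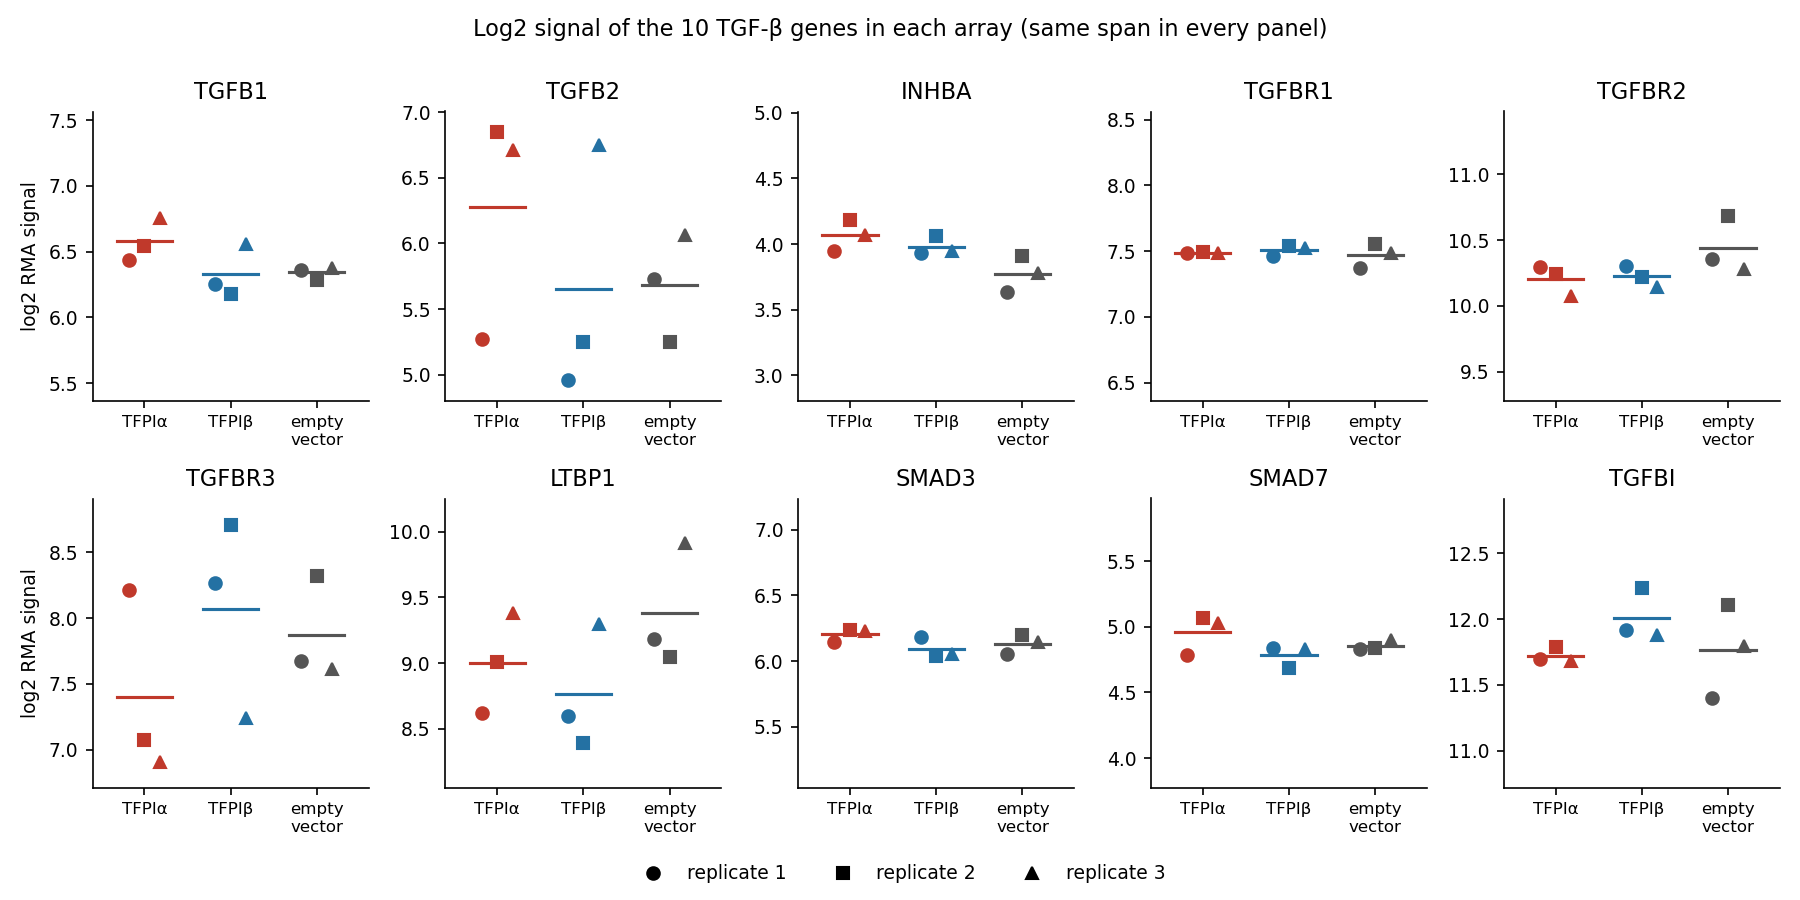
Log2 RMA signal of each of the 10 genes in the 9 arrays, by labelled group, with marker shape for the replicate number and a line at the group mean. TGFB2, TGFBR3 and LTBP1 spread over 1.89, 1.80 and 1.52 log2 units, and TGFBR1 and SMAD3 over 0.19 and 0.20.

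Among the ligands, TGFB1, the most widely expressed TGF-β isoform, had log2 signals of 6.44, 6.54 and 6.76 in the TFPIα arrays, 6.25, 6.17 and 6.56 in the TFPIβ arrays and 6.36, 6.28 and 6.38 in the empty vector arrays. All TFPIα arrays lay above all empty vector arrays, while the TFPIβ arrays lay on both sides of them. The log2 fold change of TFPIα against empty vector was 0.24 ± 0.12 (SE, limma, n = 3 per group, adjusted p = 0.399), that of TFPIβ against empty vector -0.01 ± 0.12 (adjusted p = 1) and that of TFPIβ against TFPIα -0.25 ± 0.12 (adjusted p = 0.532). Within replicate numbers 1, 2 and 3, TFPIα exceeded empty vector by 0.08, 0.26 and 0.38 and exceeded TFPIβ in 3 of 3 numbers. Here and below, agreement across the 3 numbers is a description, since its share over all probe sets was not counted.

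TGFB2, the isoform that depends most on betaglycan for receptor binding, had log2 signals of 5.27, 6.85 and 6.71 in the TFPIα arrays. The TFPIβ arrays had 4.96, 5.25 and 6.75, and the empty vector arrays 5.73, 5.25 and 6.07. The highest array exceeded the lowest by 1.89 on the log2 scale, a 3.70-fold difference, yet each group held both low and high arrays and all 3 groups overlapped. The log2 fold changes were accordingly poorly determined, at 0.59 ± 0.55 for TFPIα (SE, 95% interval -0.67 to 1.85, adjusted p = 0.623), -0.03 ± 0.55 for TFPIβ (adjusted p = 1) and -0.62 ± 0.55 for TFPIβ against TFPIα (adjusted p = 0.639). The call did not depend on 1 array, but the sign did: TFPIβ against empty vector gave -0.58 without TFPIβ replicate 3 and 0.32 without TFPIβ replicate 1.

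INHBA, which encodes the β subunit of activin A, a related ligand that also signals through SMAD3, had 3.95, 4.18 and 4.07 in the TFPIα arrays, 3.93, 4.06 and 3.95 in the TFPIβ arrays and 3.63, 3.91 and 3.78 in the empty vector arrays. Every array labelled TFPIα or TFPIβ lay above every empty vector array, all of them under the level of 5. In the fit without a filter the log2 fold changes were 0.29 ± 0.10 for TFPIα (SE, adjusted p = 0.487) and 0.20 ± 0.10 for TFPIβ (adjusted p = 1), and within replicate numbers the differences were 0.31, 0.27 and 0.29 for TFPIα and 0.30, 0.15 and 0.16 for TFPIβ.

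Of the receptors, TGFBR1, the signalling kinase, varied least of the 10 genes. Its log2 signals were 7.48, 7.49 and 7.48 in the TFPIα arrays, 7.46, 7.54 and 7.53 in the TFPIβ arrays and 7.37, 7.56 and 7.48 in the empty vector arrays. The groups overlapped, and the 95% intervals of its log2 fold changes, -0.16 to 0.20 for TFPIα and -0.14 to 0.22 for TFPIβ, lay well inside a 2-fold difference.

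TGFBR2, the ligand-binding kinase, had 10.29, 10.24 and 10.07 in the TFPIα arrays, 10.31, 10.22 and 10.15 in the TFPIβ arrays and 10.35, 10.68 and 10.28 in the empty vector arrays. Empty vector replicate 2 was the highest, and the groups overlapped, although the empty vector array exceeded its TFPIα and TFPIβ partners in 3 of 3 replicate numbers. The log2 fold changes were -0.24 ± 0.12 for TFPIα (SE, adjusted p = 0.393, the lowest of the 9 members there) and -0.22 ± 0.12 for TFPIβ (adjusted p = 1).

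TGFBR3 had 8.21, 7.07 and 6.91 in the TFPIα arrays, 8.26, 8.71 and 7.24 in the TFPIβ arrays and 7.67, 8.32 and 7.61 in the empty vector arrays. The lowest arrays were TFPIα replicates 2 and 3 and TFPIβ replicate 3, and the groups overlapped over a 3.49-fold range. Its log2 fold changes were -0.47 ± 0.45 for TFPIα (SE, 95% interval -1.50 to 0.56, adjusted p = 0.631), 0.20 ± 0.45 for TFPIβ (adjusted p = 1) and 0.67 ± 0.45 for TFPIβ against TFPIα (adjusted p = 0.568).

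LTBP1, the latency-binding protein, had 8.62, 9.01 and 9.38 in the TFPIα arrays, 8.60, 8.39 and 9.30 in the TFPIβ arrays and 9.18, 9.05 and 9.91 in the empty vector arrays. In each group replicate 3 was the highest, so the groups overlapped, but within a replicate number the empty vector array was always the highest of the 3. TFPIβ lay below empty vector by a nearly equal step in each number, with differences of -0.58, -0.65 and -0.61, while TFPIα gave -0.56, -0.04 and -0.53. Without the replicate number the log2 fold changes were -0.61 ± 0.31 for TFPIβ (SE, 95% interval -1.33 to 0.11, adjusted p = 1) and -0.38 ± 0.31 for TFPIα (adjusted p = 0.581). With the number as a block the unadjusted limma p of LTBP1 was 0.00301 for TFPIβ and 0.0285 for TFPIα, with adjusted p = 0.432 and 0.217, so the call did not change. In these blocked fits 2, 1 and 1 of the 9 members had an unadjusted p under 0.05 in the 3 comparisons, namely LTBP1 and TGFB1 for TFPIα, LTBP1 for TFPIβ and TGFB1 for TFPIβ against TFPIα, beside 20.3%, 7.16% and 15.4% of all probe sets.

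**Figure D2:**
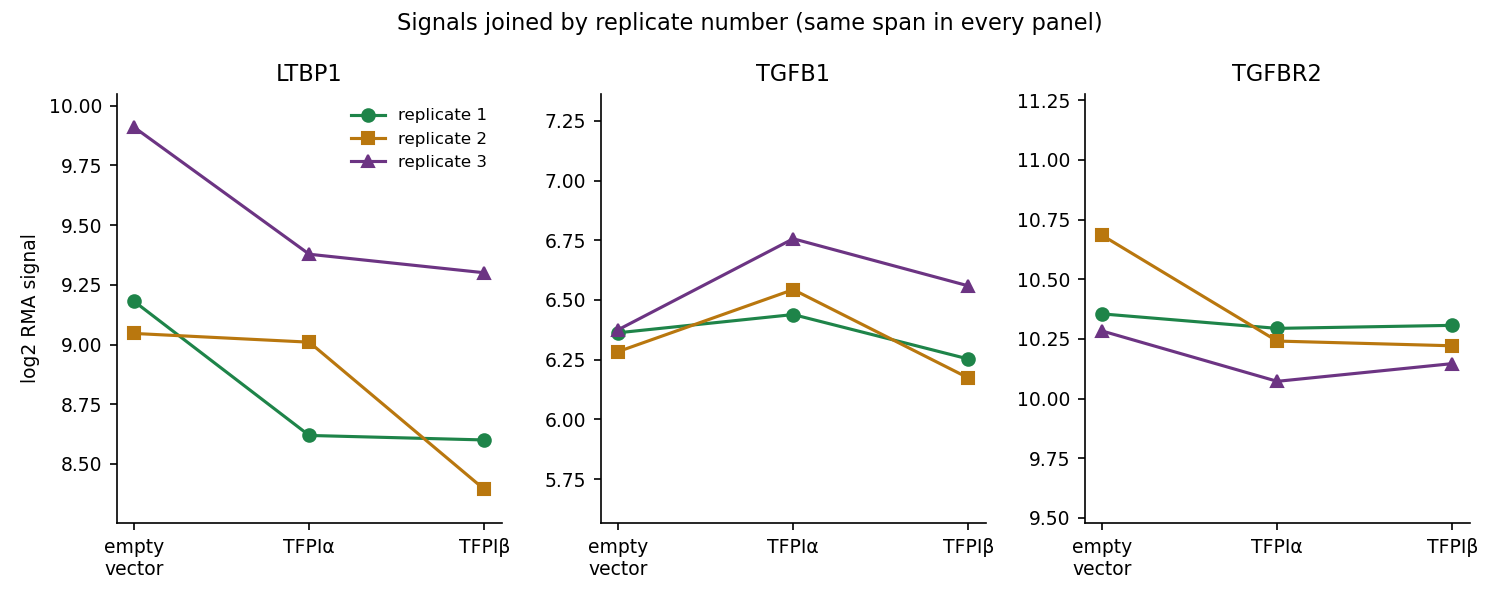
Log2 RMA signal of LTBP1, TGFB1 and TGFBR2, with lines joining arrays of the same replicate number across the labelled groups. For LTBP1 the lines run from empty vector to TFPIβ with similar differences of -0.58, -0.65 and -0.61, whereas replicate 3 lies above the other numbers in every group.

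LTBP1 was also the member that differed most between replicate numbers. Its mean log2 signal was 8.80 ± 0.33, 8.82 ± 0.37 and 9.53 ± 0.33 (SD, n = 3 arrays) for numbers 1, 2 and 3, with F = 19.0 in limma and an adjusted p of 0.188. For replicate number, 0 members and 0% of all probe sets passed an adjusted p of 0.05 in limma. LTBP1 alone of the members was under an unadjusted p of 0.05, as did 16.0% of all probe sets. TGFB2 had means of 5.32, 5.78 and 6.51 for the same numbers (adjusted p = 0.322) and TGFBR3 had 8.05, 8.03 and 7.25 (adjusted p = 0.361).

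Of the signal carriers, SMAD3, which TGFBR1 phosphorylates, had 6.14, 6.24 and 6.23 in the TFPIα arrays, 6.18, 6.04 and 6.06 in the TFPIβ arrays and 6.05, 6.20 and 6.14 in the empty vector arrays. The groups overlapped throughout, and the log2 fold changes of 0.07 ± 0.08 for TFPIα and -0.04 ± 0.08 for TFPIβ (SE) had adjusted p-values of 0.690 and 1. Against empty vector within replicate numbers 1, 2 and 3, the differences were 0.09, 0.04 and 0.08 for TFPIα. For TFPIβ they were 0.13, -0.16 and -0.08. SMAD7, itself a target of the pathway that feeds back on the receptor, had 4.79, 5.06 and 5.03 in the TFPIα arrays, 4.84, 4.69 and 4.83 in the TFPIβ arrays and 4.83, 4.84 and 4.90 in the empty vector arrays. It passed the level of 5 only through TFPIα replicates 2 and 3, and its log2 fold changes were 0.10 ± 0.10 for TFPIα (SE, adjusted p = 0.628) and -0.07 ± 0.10 for TFPIβ (adjusted p = 1).

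TGFBI, a secreted matrix protein named for its induction by TGF-β, had 11.70, 11.79 and 11.68 in the TFPIα arrays, 11.92, 12.24 and 11.88 in the TFPIβ arrays and 11.40, 12.11 and 11.80 in the empty vector arrays. All TFPIβ arrays lay above all TFPIα arrays, and the empty vector arrays spanned most of both. TFPIβ exceeded TFPIα by 0.29 ± 0.18 on the log2 scale (SE, adjusted p = 0.550), and within replicate numbers 1, 2 and 3 by 0.22, 0.45 and 0.20. Against empty vector its log2 fold changes were -0.05 ± 0.18 for TFPIα (adjusted p = 0.923) and 0.24 ± 0.18 for TFPIβ (adjusted p = 1).

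The precision differed among the members. For 6 of them (TGFB1, TGFBR1, TGFBR2, SMAD3, SMAD7 and TGFBI) the 95% intervals of all 3 comparisons lay within a 2-fold difference in either direction, so a larger change lay outside the intervals. For the other 3, TGFB2, TGFBR3 and LTBP1, at least 1 interval reached past 2-fold, so the intervals do not exclude a change of that size. Every interval of the 9 members included 0 in the fit without the replicate number. With the number as a block, 4 intervals excluded 0: LTBP1 at -0.70 to -0.05 for TFPIα and -0.94 to -0.29 for TFPIβ, and TGFB1 at 0.01 to 0.47 for TFPIα and -0.48 to -0.02 for TFPIβ against TFPIα. These are not adjusted for the number of probe sets, and none of the 4 passed the adjusted threshold. In the blocked fits the intervals of 2 members, TGFB2 and TGFBR3, reached past 2-fold.

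**Figure D3:**
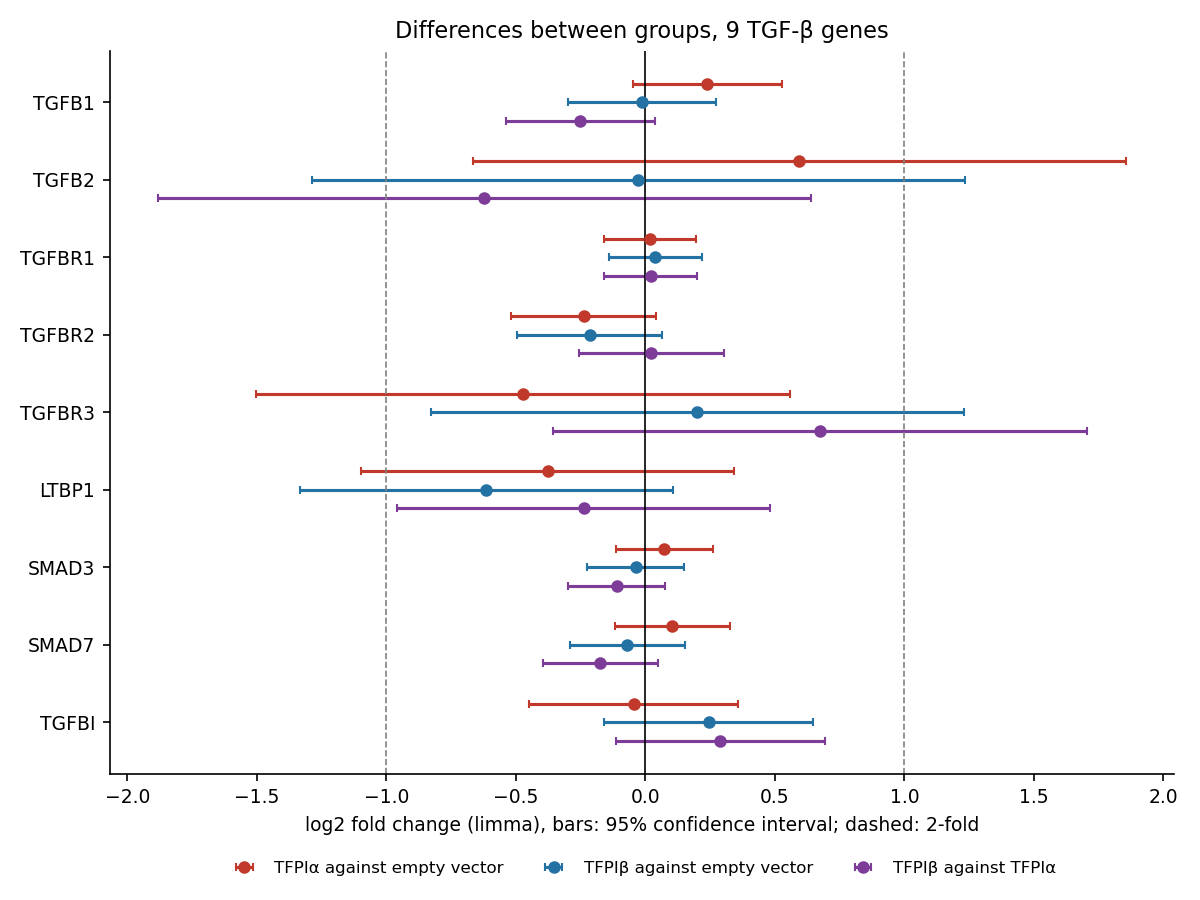
Log2 fold change of the 9 tested genes with its 95% confidence interval from limma, for TFPIα and TFPIβ, each against empty vector, and for TFPIβ against TFPIα, with dashed lines at a 2-fold difference. The intervals are those of the fit without the replicate number, in which all cross 0, and those of TGFB2, TGFBR3 and LTBP1 extend past a dashed line.

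Across the 9 arrays, TGFB2 and TGFBR3 were mirror images. The Pearson correlation of their log2 signals was -0.939 and the Spearman correlation -0.883 (n = 9 arrays), the Pearson value was -0.926 without the 2 arrays farthest from the median of TGFB2, and it was -0.950 after the means of group and replicate number had been removed. Of 11231 genes, 0.579% had a lower correlation with TGFB2. The 4 arrays with the highest TGFB2 signals, TFPIα replicates 2 and 3, TFPIβ replicate 3 and empty vector replicate 3, were the 4 with the lowest TGFBR3 signals. The points share their groups, replicate numbers and normalization, and the pair was singled out after its values had been seen, so these values are a description without a test.

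TGFB1 followed TGFB2, with a Pearson correlation of 0.839, and ran opposite to TGFBR3, with -0.900. Among the 36 pairs of the 9 members, 3 had a correlation of -0.8 or lower, TGFBR3 with TGFB2, TGFB1 and SMAD7, and 2 had one of at least 0.8, TGFB1 with TGFB2 and TGFBR1 with TGFBI. TGFBR3 with SMAD7 gave -0.661 without the 2 arrays farthest from the median of TGFBR3. TGFBR1 with TGFBI gave 0.629 without the 2 arrays farthest from the median of TGFBR1. SMAD7 passed the level of 5 only through TFPIα replicates 2 and 3, the arrays with the lowest TGFBR3 signals, so its pair with TGFBR3 carries little weight. The genes most like TGFB2 in pattern among the 11231 were WDR3 (r = 0.988), a factor of ribosome biogenesis, ARSJ (r = 0.984), an arylsulfatase, and AKIRIN2 (r = 0.982), a nuclear factor.

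Known target genes of TGF-β family signalling followed TGFB2 in some cases and ran opposite to it in others, with THBS1 and ID1 among the former. THBS1, which encodes the latent TGF-β activator thrombospondin 1, had log2 signals of 8.53, 9.84 and 10.23 in the TFPIα arrays, 8.33, 7.88 and 9.95 in the TFPIβ arrays and 8.70, 8.16 and 9.68 in the empty vector arrays. ID1, which encodes an inhibitor of DNA binding, had 6.76, 7.90 and 8.01, then 6.61, 6.15 and 8.35, then 6.75, 6.37 and 7.48 in the same order of groups. Both had their 4 highest values in the 4 arrays with the highest TGFB2, as did FN1 (fibronectin). For THBS1, ID1 and FN1 the Pearson correlations with TGFB2 were 0.939, 0.940 and 0.867 (n = 9 arrays). The Spearman correlations were 0.867, 0.867 and 0.667. After the means of group and replicate number had been removed, the Pearson values were 0.934, 0.926 and 0.683. These 3 genes were chosen after their values had been seen, and correlations of this size were common: 7.78% of 11231 genes reached 0.8 or more with TGFB2 and 8.37% -0.8 or less, beside 8 and 4 of the 74 tested genes of the pathway lists. ENG, BHLHE40, CCN2, TGFBRAP1 and ITGA2 were the other 5 of those 8. The 4 that ran opposite were SMAD1 (r = -0.916), the activin receptor-like kinase gene ACVR1 (r = -0.877), and the collagen genes COL7A1 (r = -0.889) and COL1A1 (r = -0.829). Only the collagen genes among these are on the list of targets. Of the 25 tested SMAD partners and target genes, 5 reached 0.8 or more and 2 reached -0.8 or less. ID3, listed beside ID1, had -0.158. TGFBI, the TGF-β-induced member, had -0.338 with TGFB2. Its value was -0.936 after the means of group and replicate number had been removed.

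Most measured basal epithelial markers, the list of proliferation genes, and the leukocyte and luminal lists given below varied with TGFB2 and TGFBR3. Of the 5 measured genes of 8 basal epithelial markers, 4 had a correlation of -0.8 or lower with TGFB2, led by KRT5 at -0.988. The other measured gene, LAMB3, went the other way at 0.436, and KRT6A, KRT17 and TP63 were not measured. The 4 lowest KRT5 values were in the 4 arrays with the highest TGFB2. The summed linear signal of the 5 basal genes ranged from 10286 to 14335 in the TFPIα, 10067 to 14966 in the TFPIβ and 12796 to 13890 in the empty vector arrays. All 14 proliferation genes were measured and reached a signal of 5, with summed linear signals of 6392, 7071 and 6763 in the TFPIα arrays, 3894, 1625 and 7062 in the TFPIβ arrays and 4198, 2150 and 4036 in the empty vector arrays. The mean log2 signal of this list had a correlation of 0.708 with TGFB2 and -0.811 with TGFBR3. TFPIα replicate 1, with many proliferation transcripts and little TGFB2, stood apart from that relation. Taken singly, 1 of the 14 genes (7.14%) reached a correlation of 0.8 with TGFB2, beside 7.78% of all genes. The part of these lists in the TGFB2 and TGFBR3 values was not tested. In RNA from a whole culture, fewer cells of a type and less RNA per cell cannot be told apart.

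**Figure D4:**
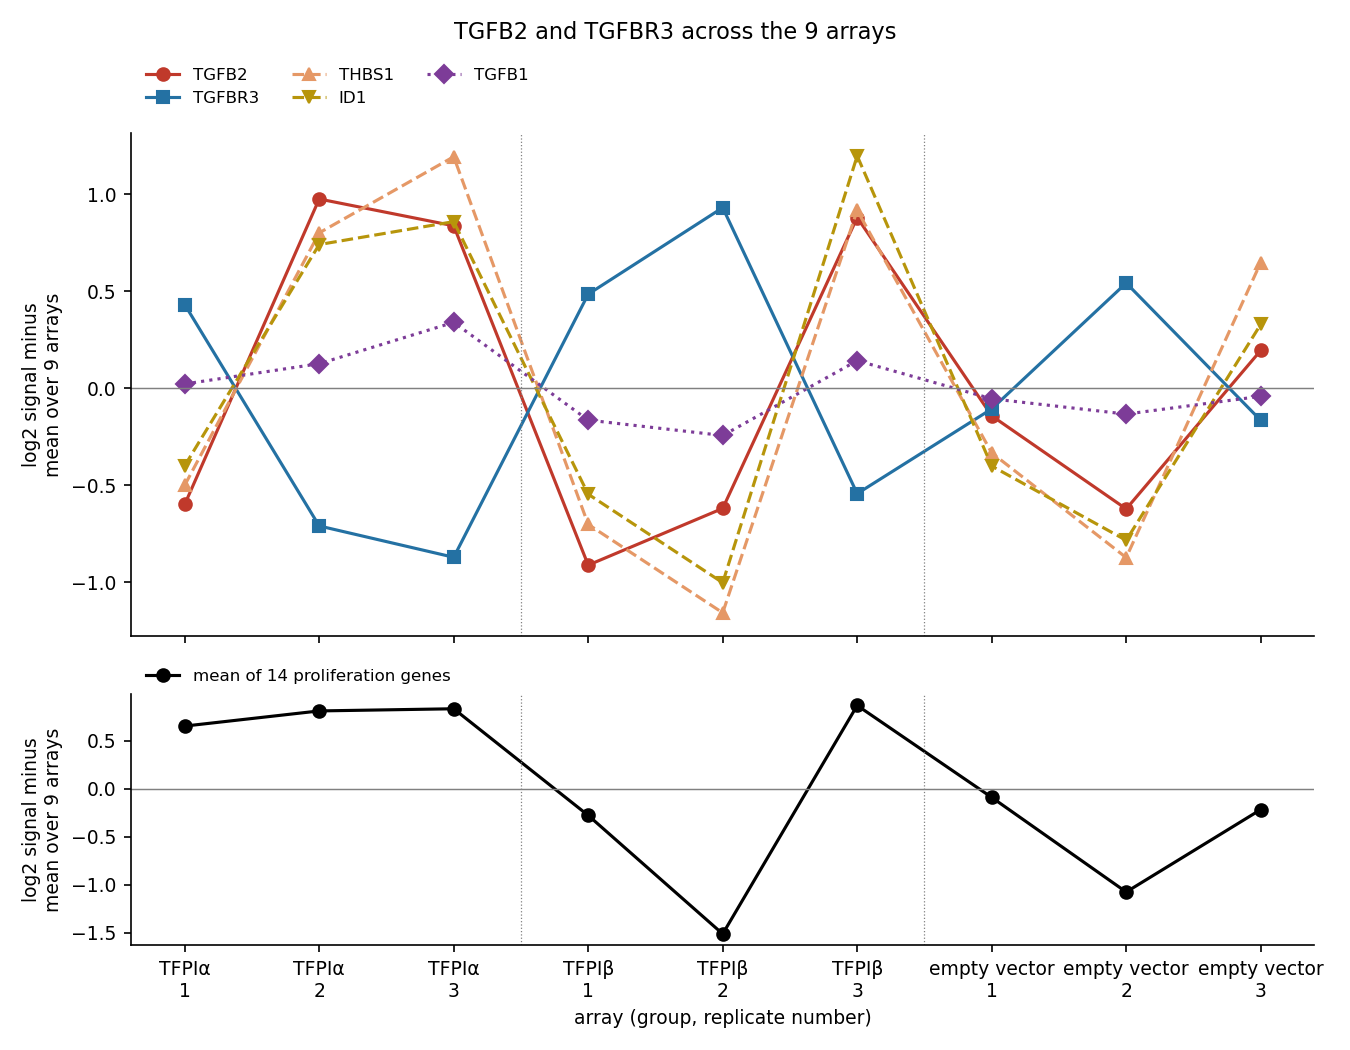
Log2 signal minus its mean over the 9 arrays, by labelled group and replicate number, for TGFB2, TGFBR3, THBS1, ID1 and TGFB1 (upper panel) and for the mean of 14 proliferation genes (lower panel). TGFB2, THBS1 and ID1 lie above their means in TFPIα replicates 2 and 3, TFPIβ replicate 3 and empty vector replicate 3, where TGFBR3 lies below its own.

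The remaining marker lists are given as sums of linear signal, which are compared between arrays and not between lists. Of 8 fibroblast and mesenchymal markers 3 reached a signal of 5, and their summed linear signal was 190.5 to 248.7 in the TFPIα, 242.3 to 321.1 in the TFPIβ and 212.5 to 321.6 in the empty vector arrays. Of 5 endothelial markers 1 reached it, with sums of 82.7 to 90.7, 78.0 to 83.4 and 81.3 to 85.0. Of 5 measured leukocyte markers 2 did, CD14 and CD68, with sums of 296.0 to 491.6, 286.5 to 494.6 and 377.3 to 774.3, while PTPRC, the pan-leukocyte marker, stayed between 2.19 and 2.28 on the log2 scale. Of 10 luminal and HER2 amplicon markers 9 reached it, with sums of 1852 to 2063, 1478 to 2140 and 1083 to 1817. These sums are mainly KRT18, at 9.49 to 10.76 on the log2 scale, while no other gene of the list exceeded 6.58. The correlation of the mean log2 signal with TGFB2 was 0.757 for the leukocyte list and -0.758 for the luminal list. With TGFBR3 it was -0.743 for the leukocyte list and 0.864 for the luminal list. The part of these lists in the values was not tested.

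Beyond the members, 109 genes of the pathway were listed in 6 groups, of which 105 had a probe set with 1 symbol and 74 reached a signal of 5. None of the 74 was called in any of the 3 comparisons with limma, and 12, 8 and 6 had an unadjusted p under 0.05, with 6 higher and 6 lower for TFPIα, 2 higher and 6 lower for TFPIβ, and 2 higher and 4 lower for TFPIβ against TFPIα, beside 14.2%, 4.72% and 8.63% of all probe sets. The groups did not overlap for 8 higher and 7 lower genes, 1 higher and 8 lower, and 2 higher and 6 lower, beside 23.3%, 7.16% and 13.3% of all probe sets. Nothing particular to the pathway is read from these counts. The same holds for genes named below that do not overlap in both comparisons with empty vector, since those comparisons share their control arrays. The median log2 fold changes were -0.02, -0.03 and -0.05, beside 0.00 over all probe sets.

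The 8 tested of 18 further ligands had medians of -0.10 for TFPIα and -0.02 for TFPIβ. BMP1, which despite its name is a protease that processes procollagen and latent complexes, had the largest difference for TFPIα, -0.57 ± 0.12 (SE, adjusted p = 0.335), and gave -0.48 ± 0.12 for TFPIβ (adjusted p = 0.809). GDF15, a stress-induced member of the ligand family, gave -0.86 ± 0.28 for TFPIβ (adjusted p = 1) and -0.47 ± 0.28 for TFPIα. BMP1 was lower in all 6 arrays labelled TFPIα or TFPIβ than in all empty vector arrays, and GDF15 in all 3 labelled TFPIβ.

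The 7 tested of 12 further receptors and co-receptors had medians of -0.04 and -0.03, with ACVR1B, the type I activin receptor that acts through SMAD2 and SMAD3, at -0.35 ± 0.14 for TFPIα (SE, adjusted p = 0.346) and -0.40 ± 0.14 for TFPIβ (adjusted p = 1). The 6 tested of 8 further SMADs had medians of -0.02 and -0.06. Their largest differences were -0.22 ± 0.14 for SMAD1 with TFPIα (adjusted p = 0.477) and -0.16 ± 0.10 for SMAD5 with TFPIβ (adjusted p = 1), and both genes carry signals of bone morphogenetic proteins.

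The 13 tested of 20 latency, matrix and antagonist genes had medians of -0.13 and -0.13. DCN, which encodes decorin, a matrix proteoglycan that binds TGF-β, had log2 signals of 9.85, 9.68 and 10.32 in the TFPIα arrays, 9.66, 9.48 and 9.64 in the TFPIβ arrays and 10.52, 11.14 and 10.91 in the empty vector arrays. All 6 arrays labelled TFPIα or TFPIβ lay below all empty vector arrays, with log2 fold changes of -0.90 ± 0.20 (SE, adjusted p = 0.335) and -1.26 ± 0.20 (adjusted p = 0.665). FBN2, a fibrillin of the microfibrils that hold latent complexes, did not overlap either, at -0.73 ± 0.23 and -1.19 ± 0.23 (adjusted p = 0.335 and 0.665), and was chosen after its values had been seen.

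The 15 tested of 16 intracellular inhibitors and corepressors had medians of 0.01 and 0.02. PEG10, an imprinted gene derived from a retrotransposon whose product binds TGF-β receptors, had log2 signals of 7.90, 7.90 and 7.54 in the TFPIα arrays, 7.21, 6.59 and 7.26 in the TFPIβ arrays and 6.69, 6.16 and 6.51 in the empty vector arrays. Every TFPIα array lay above every other array, and the log2 fold change was 1.33 ± 0.21 (SE, adjusted p = 0.289, the lowest of the 74 genes), against 0.56 ± 0.21 for TFPIβ (adjusted p = 1). NEDD4L, a ubiquitin ligase that acts on activated SMAD2 and SMAD3, had 7.09, 6.45 and 7.06, then 7.15, 6.47 and 6.82, then 8.03, 7.53 and 8.06 in the TFPIα, TFPIβ and empty vector arrays. All 6 arrays labelled TFPIα or TFPIβ were lower than all empty vector arrays, with log2 fold changes of -1.01 ± 0.24 (SE, adjusted p = 0.335) and -1.06 ± 0.24 (adjusted p = 0.801).

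The 25 tested of 35 SMAD partners and target genes had medians of 0.22 for TFPIα, 0.04 for TFPIβ and -0.10 for TFPIβ against TFPIα. The TFPIα median rested on which arrays were kept, at 0.32, 0.11 and 0.08 without TFPIα replicate 1, 2 and 3. Of the 25, 17 lay above 0 for TFPIα and 14 for TFPIβ. FN1, a matrix target, had 7.55, 9.34 and 10.42 in the TFPIα arrays, 7.56, 7.10 and 9.39 in the TFPIβ arrays and 6.73, 7.02 and 8.66 in the empty vector arrays. The groups overlapped, and the log2 fold changes of 1.63 ± 0.87 for TFPIα (SE, adjusted p = 0.403) and 0.55 ± 0.87 for TFPIβ (adjusted p = 1) did not pass. ID3, like ID1 a target of SMAD1 and SMAD5, gave 0.88 ± 0.42 for TFPIβ (adjusted p = 1) and 0.62 ± 0.42 for TFPIα.

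**Figure D5:**
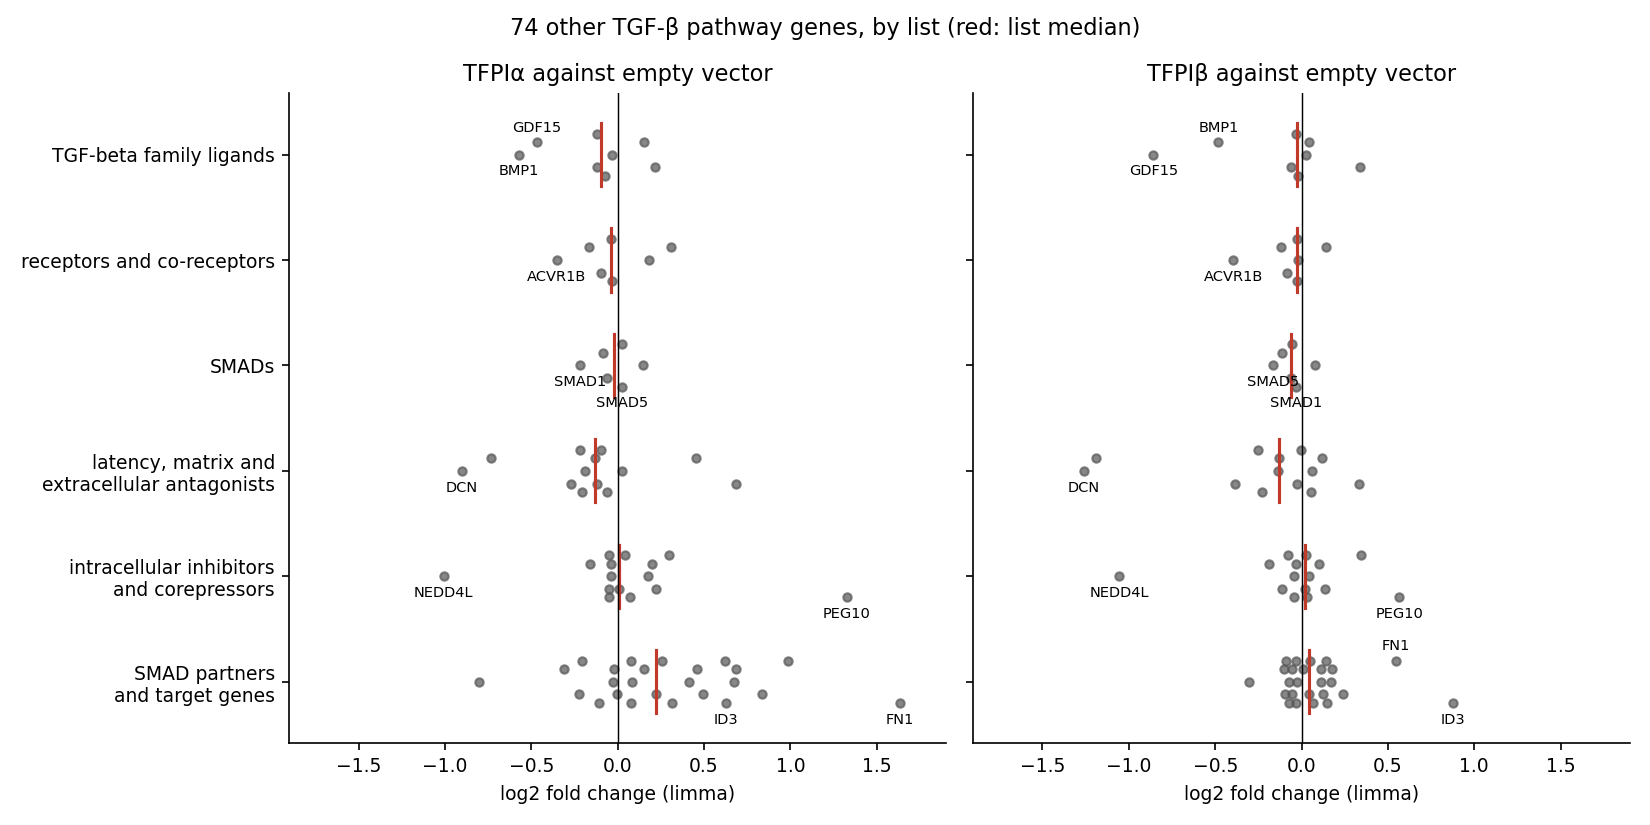
Log2 fold change of the 74 tested pathway genes other than the 10 members, in 6 lists, for TFPIα and TFPIβ against the same empty vector arrays, with a red line at each list's median and the genes named by rule. PEG10 and FN1 lie farthest to the right for TFPIα at 1.33 and 1.63, and DCN and NEDD4L lie left of -0.9 in both panels.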

How the data were processed

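Global mRNA expression was measured on 9 arrays, 3 per labelled group. The authors normalized the scans with RMA in Partek (named in the submitters' processing notes, versions not given in the sources used here), and the deposited values are log2 signals of 33297 probe sets, with the log base read from their range. The number of arrays limits the precision. Gene symbols came from the array annotation, and promoter windows from RefSeq.

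The threshold of the methods was applied to the deposited values: probe sets whose highest signal was under 5 were removed, leaving 17482, a set that differs in size from the one the study gives. One limma fit (version 3.58.1, R 4.3.3, lmFit and eBayes) covered the 3 groups, with Benjamini-Hochberg adjustment over these probe sets, in place of the one-way analysis of variance of the methods, which was run without variance moderation as an alternative. Calls required an adjusted p under 0.05 together with a difference of 2-fold or more. The script was tested on simulated data. Correlations and figures used Python 3.11.15 and matplotlib 3.10.9.

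Replicate numbers come from the titles. Deviations from group means had correlations of 0.137 to 0.594 over the 9 pairs with the same number and -0.512 to 0.266 over the other 18. The ranges overlapped, and since group means were removed, both sets of correlations depend on each other. The number was therefore fitted as a block only as an alternative. Further alternatives were a threshold of 0.10, only the compared groups, no filter, a filter at 6, centring on array medians, a trended and robust prior, probe sets with 1 symbol, arithmetic means, and the omission of single arrays.

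Named genes were all members, the genes that check the labels, the gene with the largest difference of each pathway list in each comparison with empty vector, and the 3 genes most correlated with the widest-ranging member. Other genes named beside TGFB2 or in a list were chosen after their values had been seen. The members and lists were chosen with earlier results of these data known. The miRNA and protein measurements were not analysed here.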

Additional observations from a re-analysis of the deposited data

How the results depend on the processing

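The count of 0 called members and 0 called pathway genes held in each comparison under every alternative run. Called transcripts in TFPIα against empty vector were 1, but 0 under the one-way model, with only the compared groups, with no filter, with centred arrays and with the replicate block, and 0 to 4 when each array was left out, with 4 without TFPIα replicate 3 and 0 without any one of TFPIα replicates 1 and 2, TFPIβ replicates 1 to 3 and empty vector replicates 1 and 2. In TFPIβ against TFPIα the replicate block gave 1 in place of 0. The cause was not tested. Of 510 repeats of a member's log2 fold change 495 kept the sign and the side of the threshold and 15 turned sign. With arithmetic means TGFB2 in TFPIβ against empty vector was 0.16, and with centred arrays TGFBR1 and TGFBR2 in TFPIβ against TFPIα were -0.010 and -0.00795. With each array left out, the range for TFPIα against empty vector was -0.0323 to 0.0615 for TGFBR1 and -0.23 to 0.12 for TGFBI. For TFPIβ against empty vector it was -0.127 to 0.0654 for TGFB1, -0.58 to 0.32 for TGFB2, -0.0120 to 0.0818 for TGFBR1 and -0.12 to 0.62 for TGFBR3, and for TFPIβ against TFPIα it was -0.0427 to 0.0682 for TGFBR2. No other alternative turned a member's sign. Of 306 repeats of a pathway list's median 53 moved by more than the spread between replicates. The mean of several probe sets was not run, since each member has 1. SMAD7 has no value with the filter at 6. INHBA was under 5 in every array, and SMAD7 and the low TGFB2 arrays lay near it.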
